A study of Rattus norvegicus with 6 samples.

Results

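Interferon signalling and interferon-stimulated genes were followed in rat (Sprague Dawley) nucleus pulposus cells, which fill the soft centre of the disc between vertebrae. The group was a list of 43 gene symbols, and 42 of them had a row among the 22573 gene rows of the series. The expression of Xaf1 was not analysed here. RNA sequencing compared 3 control libraries with 3 libraries of cells under cyclic tensile strain, stretched for 24 h on a Flexcell device with 18% elongation at 0.2 Hz. The treatment description is identical for the 6 samples, and that the controls were not stretched is taken from their class label only. No genotype, age, passage, batch or harvest time was given, nor whether replicates were separate animals or cultures. The p-values therefore measure only the spread between these libraries, which may be technical.

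Type I interferons bind a receptor made of IFNAR1 and IFNAR2, which carries the kinases TYK2 and JAK1. These phosphorylate STAT proteins, and STAT2 enters with IRF9 a complex, ISGF3, that binds the interferon-stimulated response element (ISRE) in promoters. Sensors of foreign nucleic acids, such as MDA5 and RIG-I, start interferon production through IRF3 and IRF7, and the stimulated genes encode antiviral effectors and feedback inhibitors. Irf1 is also known as a target of NF-kB.

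Cyclic strain was accompanied by changes in both directions. Of the 42 members, 30 had a mean of at least 1 FPKM (fragments per kilobase of transcript, scaled to the mapped fragments of the library) over the 6 libraries and were tested with limma on log2(FPKM + 1). By that test 9 fell, 6 rose and 15 were not called at an adjusted p under 0.05. The tetratricopeptide gene Ifit3, the factor Irf1, the oligoadenylate synthetase-like gene Oasl and the feedback protease Usp18 each fell by more than 1 log2 unit. No tested member rose by as much, and the rises were those of Ifitm3, Ifi35, Irf9, Ifitm2, Irf3 and Irf8. The share called, 50% of the 30, stood beside 35.4% of the 10180 genes tested in the series. By direction, 16.4% of all tested genes were called higher and 19.0% lower. When each library was rescaled to the same sum, the calls over all genes turned from 1672 higher and 1936 lower to 2079 higher and 1550 lower, while the members had 7 higher and 9 lower. The median log2 fold change was -0.02 over the tested members and -0.01 over all tested genes. The 3 values of one group lay wholly above or below those of the other in 19 of the 30 members and in 51.9% of all tested genes. Irf8, Oasl, Ifit3 and Gbp5 passed the filter with a mean under 1 FPKM in one group, which favours genes that differ, so these counts are descriptions only.

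**Figure D1:**
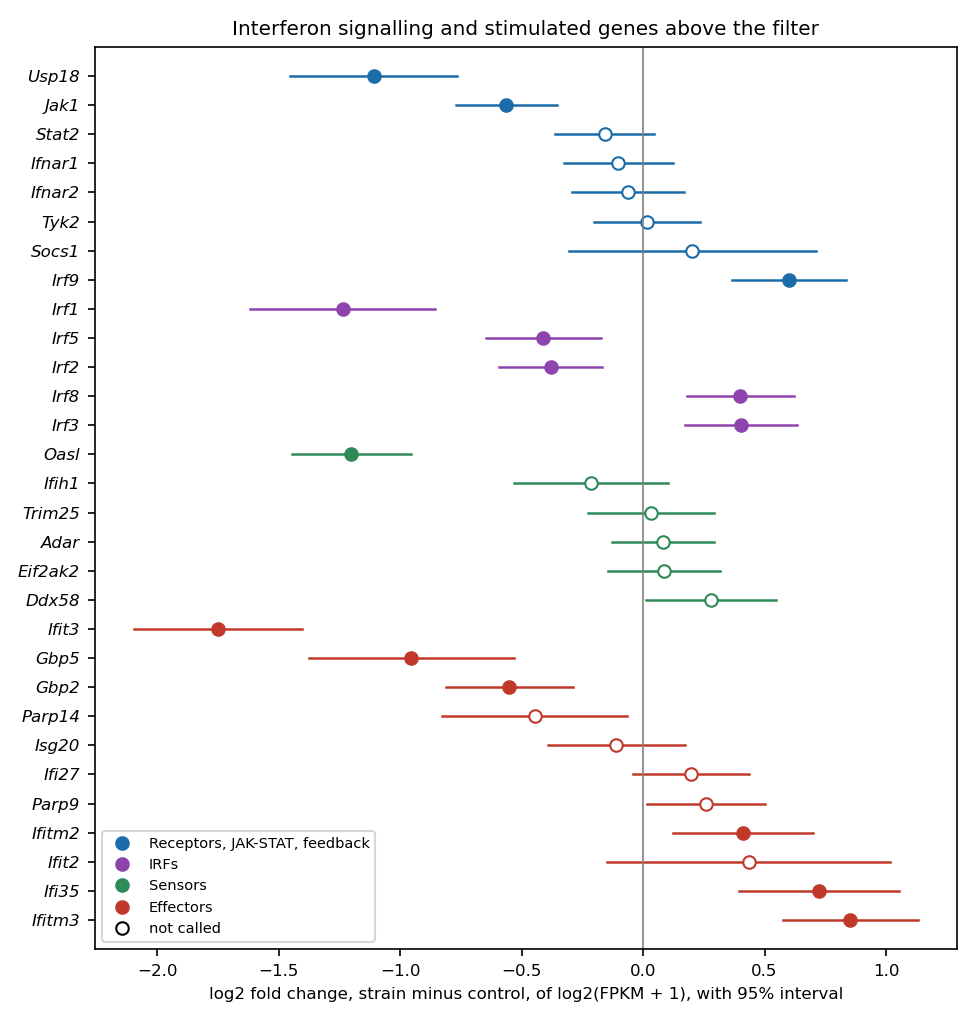
Log2 fold change, strain minus control, on the log2(FPKM + 1) scale for the 30 tested members, ordered by role, with 95% intervals for each gene alone (not adjusted over genes). Filled points passed limma's adjusted p of 0.05 and open points did not. Falls reach -1.75 (Ifit3) and rises reach 0.85 (Ifitm3).

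Whole libraries were alike in total. Summed FPKM ran from 309497 to 348238, and between 14378 and 14582 genes per library had a value above 0. FPKM keeps no read totals, so depth is unknown and no counting interval could be given. Of the markers of nucleus pulposus cells, Acan (24.2 to 43.3 FPKM), Pax1 (3.0 to 11.4 FPKM) and Foxf1 (7.49 to 13.6 FPKM) were present in every library. Pax1 and Foxf1 were higher under strain (adjusted p = 7.41e-05 and 0.0018 by limma), and Acan was not called. Col2a1 was at 0.010 to 0.068 FPKM in controls and 0.445 to 1.41 FPKM under strain. The notochordal factor gene T was at 0.048 to 0.119 FPKM, Krt18 at 0.028 to 0.139 FPKM and Krt19 at 0 to 0.071 FPKM.

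Markers of immune cells were mixed. Of 15 leukocyte and macrophage markers the pan-leukocyte gene Ptprc was at 0 to 0.049 FPKM, Cd163, C1qa and C1qb were listed at 0 throughout, and 4 were tested. Of these, Adgre1 had a mean of 3.71 FPKM in controls and a lower one of 1.31 FPKM under strain (adjusted p = 0.030 by limma). The mean of Cd68 was also lower, 0.633 FPKM against 1.53 FPKM in controls (adjusted p = 0.0089 by limma). Lyz2 rose from 0.249 to 3.30 FPKM (adjusted p = 0.00068 by limma), and Cd14, at 13.4 to 16.1 FPKM, was not called. The list summed to 17.8 to 25.0 FPKM in controls and 21.1 to 24.5 FPKM under strain, most of it Cd14. Of 10 markers of plasmacytoid and other dendritic cells, some of them strong interferon producers, 4 were listed at 0 in all libraries, Siglech among them. That list shares Irf8 and Bst2 with the members, and 4 of its genes were tested. Itgax fell from 1.49 to 0.620 FPKM (adjusted p = 0.0050 by limma). Irf8 rose from 0.873 to 1.47 FPKM (adjusted p = 0.013 by limma), and Tcf4 and Il3ra were not called. The sum of the list, 15.6 to 16.3 FPKM in controls and 14.96 to 17.1 FPKM under strain, was mostly Tcf4, at 11.3 to 13.6 FPKM. Cd68, Lyz2, Itgax and Irf8 passed the filter through one group alone.

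Single genes also carried the other marker sums. The sum of 15 nucleus pulposus markers ran from 5009 to 5390 FPKM in controls and 11800 to 14070 FPKM under strain, nearly all of it Mgp. Of the 11 tested there, 8 rose and Cdh2 fell. The sum of 9 fibroblast and annulus markers, mostly Col1a1, ran from 2288 to 2831 FPKM and from 5344 to 6636 FPKM, with 5 of the 8 tested higher and Thy1 lower. For 8 neutrophil markers, 3 of them listed at 0, the sums were 5.35 to 10.6 and 2.32 to 5.18 FPKM, mostly Camp. For 10 endothelial markers, 2 of them listed at 0, they were 13.4 to 14.5 and 17.5 to 21.1 FPKM, mostly Eng. The 13 markers of T, NK and B cells, 7 of them listed at 0, summed to at most 0.555 FPKM in any library, and the 6 erythroid markers were listed at 0. The part of these marker changes in the results on the interferon genes was not tested. In bulk RNA, fewer cells of a type and less RNA per cell cannot be told apart.

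The promoters of the members were searched for motifs. Matches are a property of this list of genes and not a result of the strain comparison. RefSeq promoter windows on the rat build GRCr8, reaching from 250 bases before to 50 bases after a start site, were available for 32 of the 43 members. The core of the ISRE was searched as GAAANNGAAA on both strands, and 18 of the 32 windows (56.2%) held it, against 3.92% of all 33469 windows of that length. The GAS core, the site of STAT dimers, was searched as TTCNNNGAA, which reads the same on both strands, and was found in 10 windows (31.2%, against 8.87% of all). An NF-kB core, GGGANNTTCC on both strands, stood in 3 windows, those of Irf3, Gbp5 and Ifitm3 (9.38%, against 1.30% of all). Overlapping ISRE cores stood in the windows of Socs1, Oas1a, Oas1b and Bst2, and in Bst2 an ISRE core also overlapped a GAS core. In Ifitm3 the NF-kB core matched on both strands, shifted by 1 base.

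The promoters of the 5 tested and called members with an ISRE core are shown because they include genes that moved in opposite directions. Each run holds the 150 bases before the start site, read 5′ to 3′ along the gene, with the ISRE core in capitals. The GRCr8 positions are chr1:241527176-241527325 on the plus strand for Ifit3, chr2:233910849-233910998 on the plus strand for Gbp5, chr2:234005577-234005726 on the plus strand for Gbp2, chr1:205541759-205541908 on the minus strand for Ifitm3 and chr1:205482349-205482498 on the minus strand for Ifitm2.
Ifit3: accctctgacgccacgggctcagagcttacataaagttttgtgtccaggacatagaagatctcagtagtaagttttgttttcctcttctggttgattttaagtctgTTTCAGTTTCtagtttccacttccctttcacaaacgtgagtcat
Gbp5: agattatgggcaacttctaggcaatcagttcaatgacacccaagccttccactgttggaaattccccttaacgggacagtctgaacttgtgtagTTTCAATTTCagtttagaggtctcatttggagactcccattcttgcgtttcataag
Gbp2: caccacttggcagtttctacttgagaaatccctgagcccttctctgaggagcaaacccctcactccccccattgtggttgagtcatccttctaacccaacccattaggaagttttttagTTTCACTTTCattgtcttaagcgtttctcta
Ifitm3: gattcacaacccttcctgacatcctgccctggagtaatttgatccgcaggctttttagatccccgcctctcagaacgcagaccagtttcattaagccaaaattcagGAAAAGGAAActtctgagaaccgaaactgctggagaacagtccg
Ifitm2: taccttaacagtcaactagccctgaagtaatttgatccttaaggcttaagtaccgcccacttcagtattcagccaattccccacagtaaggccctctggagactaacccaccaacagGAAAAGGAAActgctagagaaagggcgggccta
The first 3 genes fell and the last 2 rose. The core began 44 bases before the start site in both Ifit3, which fell, and Ifitm3, which rose. It began 56 bases before it in Gbp5, 31 in Gbp2 and 33 in Ifitm2. In the 3 genes that fell the core was found on the opposite strand, and in Ifitm2 and Ifitm3 on the gene's own strand. Both Ifitm genes carried the same 10 bases, GAAAAGGAAA, and are close copies, so they are not 2 separate cases. Rsad2, described with the low genes, also held a core on the opposite strand, but the start of its window is not the outer end of its gene record, so it is not printed. Of the other members under the filter, Irf7 and Ifi44 held cores on the opposite strand, and Oas1a, Oas1b and Bst2 on their own. The tested members not called that held a core, Socs1, Ifih1, Eif2ak2, Isg20, Ifi27 and Parp14, all had it on their own strand. Of these, Parp14 was lower in each strain library. Ifi44 was higher in each strain library but not called. Whether the strand of the core goes with the direction of change was not tested. By outcome, the ISRE core stood in 3 of 6 windows of members that fell, 2 of 6 of members that rose, 6 of 11 of members not called and 6 of 8 of members under the filter. The window of Xaf1 held it too. A match is a run of letters and not a measured binding site.

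**Figure D2:**
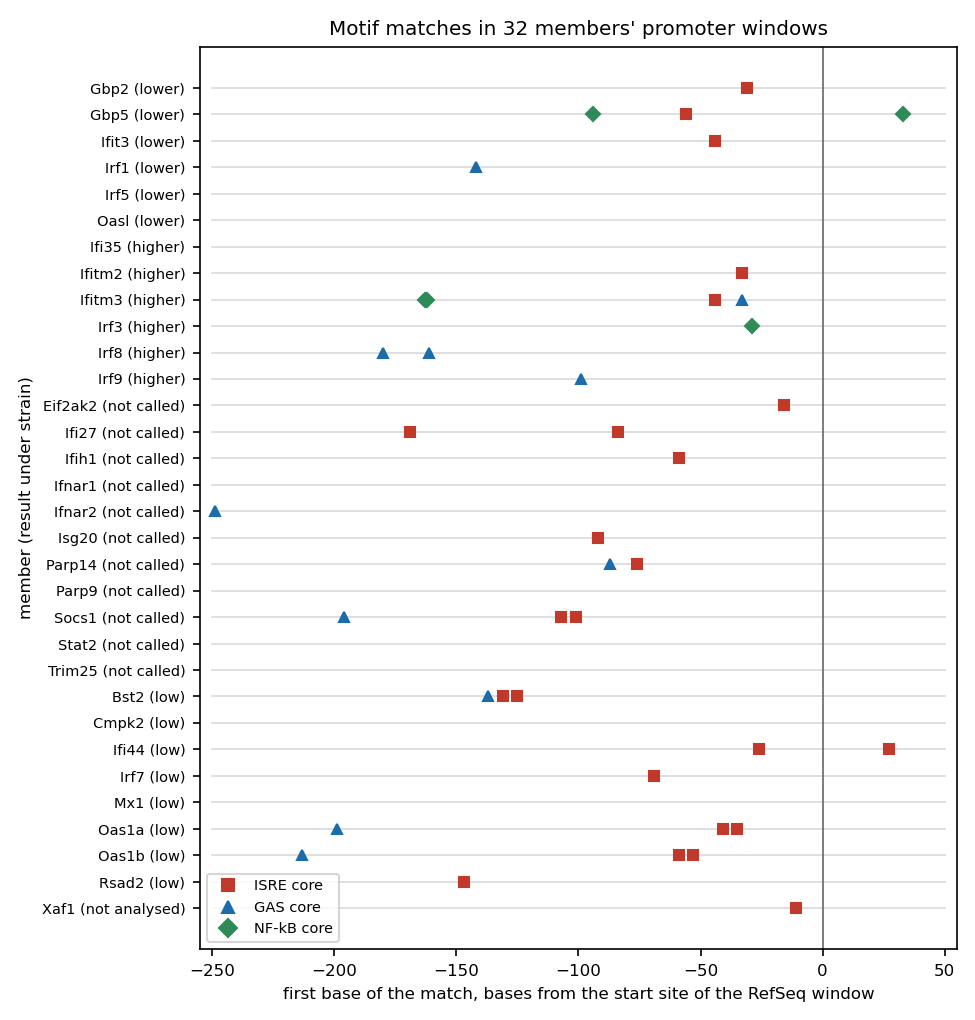
Position of each motif match in the 32 promoter windows, as the first base of the match in bases from the start site (vertical line). Red squares are ISRE cores, blue triangles GAS cores and green diamonds NF-kB cores, and each gene is marked with its result under strain (low means under the filter). ISRE cores stand in windows of every outcome, 3 of 6 for members that fell and 2 of 6 for members that rose.

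Among the receptor chains, kinases, STAT2, IRF9 and feedback inhibitors, 2 of 8 members fell, 1 rose and 5 were not called. The share called, 37.5%, was near the 35.4% of all tested genes. Neither receptor chain was called. Ifnar1 was at 15.4, 13.2 and 14.9 FPKM in the controls and 14.4, 13.6 and 12.3 FPKM in strained cells (log2 fold change -0.10 ± 0.10 SE, adjusted p = 0.45 by limma). Ifnar2 was at 7.51, 8.35 and 6.76 FPKM without strain and 7.61, 7.01 and 6.88 FPKM with it (-0.06 ± 0.10 SE, adjusted p = 0.67 by limma). The groups overlapped for both genes, with 95% intervals of -0.33 to 0.12 and -0.29 to 0.17 log2 units.

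The 2 kinases that sit on the receptor differed in outcome. Jak1, which serves many cytokine receptors, was at 31.1, 29.5 and 28.9 FPKM in the 3 controls and 21.2, 20.6 and 18.0 FPKM in the strain libraries. Every strain library lay below every control, and the mean fell 1.498-fold (log2 fold change -0.56 ± 0.09 SE, adjusted p = 0.0019 by limma). Tyk2, its partner at the interferon receptor, was at 4.24, 4.44 and 4.58 FPKM in the controls and 4.79, 4.09 and 4.58 FPKM in strained cells, with overlap, and did not pass (adjusted p = 0.91 by limma). Whether the changes of these genes differ from each other was not tested.

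The DNA-binding subunit of ISGF3 and its STAT2 partner also had different outcomes. Irf9 was at 1.83, 1.79 and 2.17 FPKM without strain and 3.15, 3.46 and 3.70 FPKM with it. The strain libraries were all higher, and the mean rose 1.78-fold (0.60 ± 0.10 SE, adjusted p = 0.0025 by limma). Stat2 was at 7.37, 7.09 and 7.76 FPKM in the 3 controls and 6.37, 6.33 and 6.92 FPKM in the strain libraries. Its ranges did not overlap, yet the difference of -0.16 ± 0.09 SE log2 units did not pass (adjusted p = 0.20 by limma).

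Of the feedback inhibitors, Usp18, which removes ISG15 from proteins and blocks signalling at IFNAR2, had the larger change. It was at 3.86, 3.06 and 4.39 FPKM in the controls and 1.51, 0.832 and 1.30 FPKM in strained cells, a 3.1-fold fall (-1.11 ± 0.15 SE, adjusted p = 0.00074 by limma). All strain values were below all control values. Socs1, an inhibitor of JAK kinases, was low and scattered, with 1.56, 0.731 and 0.725 FPKM without strain and 0.777, 2.10 and 1.12 FPKM with it (adjusted p = 0.51 by limma). Its 95% interval ran from -0.30 to 0.71 log2 units.

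**Figure D3:**
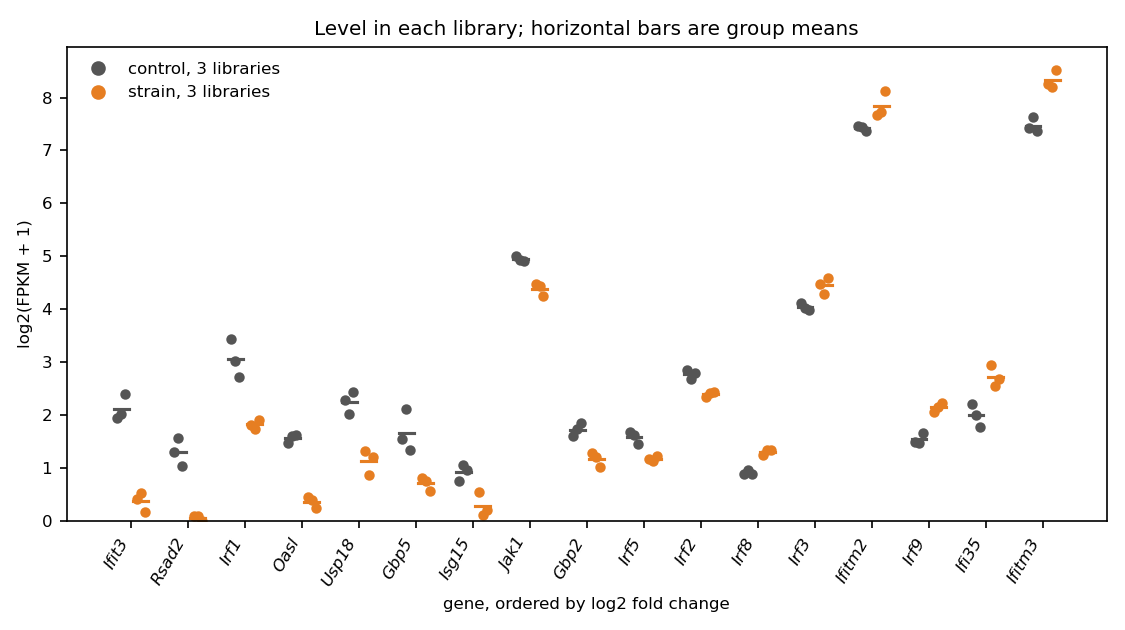
Level of each called member in each library as log2(FPKM + 1), with Rsad2 and Isg15, which were called in the fit without a filter. Grey points are the 3 controls, orange points the 3 strain libraries and bars the group means. The 17 genes are shown because they were called, and in each the strain values lie apart from the control values, as in 51.9% of all tested genes.

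Irf9, which rose, was counted above with the receptors and kinases. All 5 other tested interferon regulatory factors passed, 3 lower and 2 higher, beside 19.0% lower and 16.4% higher of all tested genes. Irf1, a short-lived activator induced by interferon-gamma and by NF-kB, had the largest change. It was at 9.85, 7.12 and 5.58 FPKM in the 3 controls and 2.52, 2.35 and 2.76 FPKM in the strain libraries, a 2.96-fold fall (-1.24 ± 0.17 SE, adjusted p = 0.00075 by limma). The strain libraries lay close together below the lowest control. Its promoter window held a GAS core, 142 bases before the start site, and no match to the ISRE or NF-kB pattern searched. Sites that differ from those letters would not be found.

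Irf2, which competes with IRF1 for the same sites, was at 6.21, 5.46 and 5.91 FPKM in the controls and 4.09, 4.32 and 4.39 FPKM in strained cells. That was a 1.37-fold fall with no overlap (adjusted p = 0.013 by limma). Irf5, a factor downstream of Toll-like receptors, was at 2.22, 2.08 and 1.74 FPKM without strain and 1.24, 1.19 and 1.35 FPKM with it, a 1.60-fold fall (adjusted p = 0.015 by limma). Without control replicate 1 neither call held (adjusted p = 0.061 for Irf2 and 0.066 for Irf5), and without strain replicate 2 that of Irf5 was lost as well (0.052). Over the alternatives the adjusted p ran from 0.012 to 0.061 for Irf2 and from 0.012 to 0.066 for Irf5.

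Irf3, the factor that nucleic acid sensors activate by phosphorylation, was the most abundant of this family and rose. It was at 16.3, 15.3 and 14.9 FPKM in the 3 controls and 21.2, 18.4 and 23.2 FPKM in the strain libraries, a 1.35-fold rise (0.40 ± 0.10 SE, adjusted p = 0.015 by limma). The groups did not overlap, and without control replicate 3 the adjusted p was 0.051 (0.0035 to 0.051 over the alternatives). Irf8, best known from blood cells, was low, at 0.842, 0.938 and 0.840 FPKM in the controls and 1.36, 1.54 and 1.52 FPKM in strained cells (0.40 ± 0.10 SE, adjusted p = 0.013 by limma). Its level was higher in every strain library, and it passed the filter through these alone (adjusted p = 0.012 by limma without a filter). Irf7, which amplifies interferon production and is itself stimulated, was under the filter at 0.708, 0.985 and 0.460 FPKM without strain and 0.569, 0.848 and 1.35 FPKM with it, with overlapping groups.

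Sensors and the enzymes that act on foreign RNA had 1 fall, no rise and 5 members not called among the 6 tested, beside 35.4% called of all tested genes. The fall was Oasl, a relative of the oligoadenylate synthetases that passed the filter through the controls alone (adjusted p = 0.00074 by limma without a filter). It was at 1.77, 2.05 and 2.07 FPKM in the 3 controls and 0.366, 0.316 and 0.186 FPKM in the strain libraries (-1.20 ± 0.11 SE, adjusted p = 0.00010 by limma). No strain library came near the control range. Its window held no match to the 3 patterns searched.

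The cytosolic RNA sensors were expressed at low levels. Ddx58, which encodes RIG-I, was at 1.10, 1.59 and 1.57 FPKM in the controls and 1.85, 1.79 and 2.15 FPKM in strained cells, higher in each strain library but not called (0.28 ± 0.12 SE, adjusted p = 0.097 by limma). Ifih1, which encodes MDA5, was at 1.47, 1.53 and 1.07 FPKM without strain and 0.940, 1.39 and 0.788 FPKM with it, with overlap (adjusted p = 0.26 by limma). Dhx58, which encodes their regulator LGP2, was under the filter at 0.130, 0.147 and 0.168 FPKM in the 3 controls and 0.233, 0.421 and 0.237 FPKM in the strain libraries. Its ranges did not overlap, and it was not called in the fit without a filter (adjusted p = 0.090 by limma).

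The RNA-dependent kinase gene Eif2ak2, which halts translation, averaged 4.87 ± 0.57 FPKM in the controls and 5.22 ± 0.08 FPKM under strain (SD, n = 3; adjusted p = 0.54 by limma). The RNA-editing enzyme gene Adar was at 3.26 ± 0.18 and 3.51 ± 0.15 FPKM and the ubiquitin ligase gene Trim25, which modifies RIG-I, at 5.61 ± 0.67 and 5.76 ± 0.61 FPKM (SD, n = 3), with limma adjusted p of 0.53 and 0.85. All 3 had overlapping groups. Zbp1 and the synthetase gene Oas1a were at or under 0.035 FPKM in every library, and Oas1b was at or under 0.169 FPKM, with zeros in at least 1 library each. Oas1a and Oas1b are near copies, and how the authors' counting shared reads between them is not known.

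Effector genes had 3 falls, 3 rises and 5 not called among the 11 tested, beside 19.0% lower and 16.4% higher of all tested genes. Of the falls, Ifit3 and Gbp5 passed the filter through the controls alone (adjusted p = 0.0010 and 0.016 by limma without a filter). In the fit without a filter 5 of the 18 effector genes fell and 2 rose, beside 23.3% called of all genes in it. Rsad2 and Isg15 were called lower there, and Ifitm2 was no longer called. Ifit3, whose protein joins the IFIT complex that binds foreign RNA, had the largest fall of any tested member. It was at 2.85, 3.04 and 4.30 FPKM in the controls and 0.338, 0.445 and 0.118 FPKM in strained cells (-1.75 ± 0.15 SE, adjusted p = 8.45e-05 by limma). The highest strain value was under the lowest control by a wide margin.

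Ifit2, whose gene is the direct neighbour of Ifit3 in the RefSeq gene order, was not called. Ifit2 was at 5.18, 8.12 and 3.03 FPKM without strain and 7.37, 7.57 and 6.78 FPKM with it, with overlap (0.43 ± 0.25 SE, adjusted p = 0.22 by limma). Within each library, the FPKM of Ifit3 divided by that of Ifit2 was 0.551, 0.374 and 1.42 in controls and 0.0458, 0.0588 and 0.0174 under strain. The ratio was lower in every strain library than in any control. It was taken for a gene already known to fall, and whether the changes of the neighbours differ was not tested. Without control replicate 2, the library with the highest Ifit2 value, Ifit2 itself was called higher (0.72, adjusted p = 0.020 by limma, 0.020 to 0.59 over the alternatives).

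The guanylate-binding proteins are GTPases that attack pathogen-containing vacuoles. Gbp2 was at 2.04, 2.33 and 2.59 FPKM in the 3 controls and 1.45, 1.31 and 1.04 FPKM in the strain libraries, a 1.83-fold fall (-0.55 ± 0.12 SE, adjusted p = 0.0063 by limma). Gbp5, which also promotes inflammasome assembly, was at 1.91, 3.31 and 1.53 FPKM in the controls and 0.746, 0.688 and 0.483 FPKM in strained cells (-0.95 ± 0.19 SE, adjusted p = 0.0046 by limma). Neither gene overlapped between groups. Of this pair, only the window of Gbp5 held NF-kB cores besides the ISRE core shown above.

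Of the 3 most abundant members, 2 rose. Ifitm3, which blocks the fusion of viruses with endosomes, was at 171, 197 and 163 FPKM without strain and 303, 291 and 368 FPKM with it, a 1.82-fold rise (0.85 ± 0.12 SE, adjusted p = 0.0010 by limma). Every strain library exceeded every control. Its relative Ifitm2 was at 175, 174 and 165 FPKM in the 3 controls and 202, 211 and 276 FPKM in the strain libraries, a 1.34-fold rise (0.41 ± 0.13 SE, adjusted p = 0.034 by limma). The call of Ifitm2 was lost without control replicate 1, 2 or 3 (adjusted p = 0.087, 0.075 and 0.103) and in the fit without a filter (0.062), within a range of 0.0024 to 0.103. The FPKM of Ifitm3 divided by that of Ifitm2 was 0.977, 1.13 and 0.989 in controls and 1.5, 1.38 and 1.33 under strain. The ratio was taken for a gene already known to rise, and whether the 2 changes differ was not tested. These genes are close copies of each other, so the split of reads between them is uncertain.

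Ifi27, which encodes a small hydrophobic protein, was the third of these abundant genes. It was at 110.5, 110.6 and 123 FPKM in the controls and 131, 119 and 147 FPKM in strained cells, overlapping at 1 library (0.20 ± 0.11 SE, adjusted p = 0.18 by limma). It was called higher after quantile normalization (adjusted p = 0.029) and after rescaling to equal sums (0.041), within a range of 0.029 to 0.37. Ifi35, whose protein partners with NMI, was at 3.64, 3.002 and 2.41 FPKM without strain and 6.68, 4.82 and 5.41 FPKM with it. All strain values were higher, a 1.87-fold rise (0.73 ± 0.15 SE, adjusted p = 0.0052 by limma).

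The ADP-ribosyltransferase genes Parp9 and Parp14 lie near each other in the gene order and were both not called. Parp9 was at 2.48, 1.95 and 2.23 FPKM in the 3 controls and 2.56, 2.94 and 3.05 FPKM in the strain libraries (adjusted p = 0.092 by limma). Parp14 was at 3.07, 2.37 and 3.32 FPKM in the controls and 2.11, 2.37 and 1.23 FPKM in strained cells (adjusted p = 0.066 by limma). In each library, Parp14 divided by Parp9 was 1.24, 1.22 and 1.49 in controls and 0.826, 0.805 and 0.405 under strain. Parp14 was lower and Parp9 higher in every strain library, so that the ratios lie apart follows from those values. Whether the changes of these genes differ was not tested. Without strain replicate 2, Parp14 was called lower (adjusted p = 0.044, range 0.044 to 0.18). Isg20, an exonuclease gene, was at 3.84 ± 0.75 and 3.46 ± 0.22 FPKM (SD, n = 3; adjusted p = 0.53 by limma).

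Across the 15 tested members that were not called, the lowest bound of a 95% interval for a single gene was -0.83 log2 units, in Parp14. The highest was 1.02 log2 units, in Ifit2. A fall of up to that size in Parp14, or a rise of up to that size in Ifit2, is therefore not shown to be absent. The intervals of the other genes stayed inside these bounds, for example -0.201 to 0.235 log2 units for Tyk2. Among the 30 tested members, Ifitm3, Ifitm2 and Ifi27 had the highest levels, at percentiles 98.1, 97.6 and 96.0 of all tested genes. Of the 42 members, 3 averaged at least 100 FPKM, 3 between 10 and 100 FPKM, 24 between 1 and 10 FPKM and 12 under 1 FPKM. The median of the tested members was 3.99 FPKM, against 8.03 FPKM over all tested genes.

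**Figure D4:**
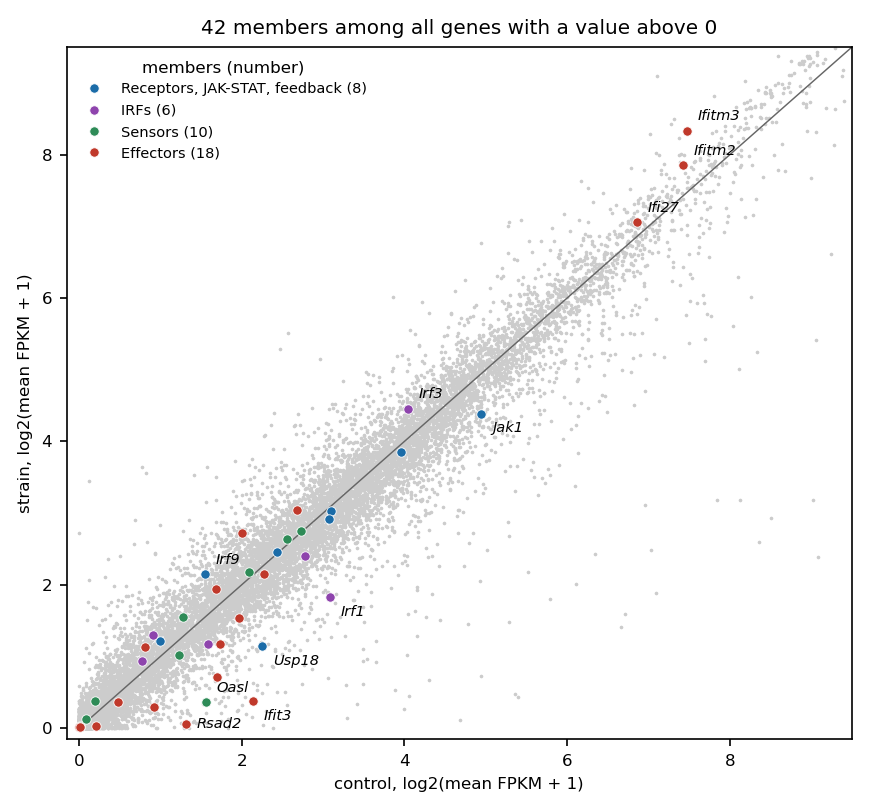
Mean level under strain against mean level in controls, both as log2(mean FPKM + 1), for all genes with a value above 0 (grey) and the 42 members coloured by role. The line marks equal levels, and the axes stop at 9.5, short of the most abundant genes. Most members lie among the low genes, Ifit3, Oasl and Rsad2 lie far under the line, and Ifitm3 lies above it.

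The 12 members under the filter included classical interferon-stimulated genes. In the fit without a filter, 2 of the 12 were called, Rsad2 and Isg15, both lower. Of all genes under the filter 11.3% were called in that fit, and of all genes in it 23.3%. Rsad2, which encodes viperin, an enzyme that makes a chain-terminating nucleotide, was at 1.46, 1.95 and 1.05 FPKM in controls. Under strain it was at 0.066 and 0.064 FPKM and was listed at 0 in strain replicate 3 (log2 fold change -1.24, adjusted p = 0.0018 by limma without a filter).

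Isg15, the ubiquitin-like modifier that USP18 removes, was at 0.687, 1.07 and 0.954 FPKM without strain and 0.458, 0.077 and 0.155 FPKM with it (-0.64, adjusted p = 0.017 by limma without a filter). Strain replicate 1 was the highest of the strain libraries and still under the lowest control. Cmpk2, the direct neighbour of Rsad2 in the gene order and a nucleotide kinase, was at 0.317, 0.553 and 0.322 FPKM in the 3 controls and 0.453, 0.234 and 0.196 FPKM in the strain libraries, with overlap (adjusted p = 0.47 by limma without a filter). The FPKM of Rsad2 divided by that of Cmpk2 was 4.60, 3.53 and 3.27 in controls and 0.145, 0.272 and 0 under strain. Every strain ratio was below every control ratio, but the ratio was taken for a gene already known to fall. All Cmpk2 values and the strain values of Rsad2 are under 1 FPKM, and whether the changes of these genes differ was not tested.

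Ifi44 was at 0.602, 0.601 and 1.05 FPKM in the controls and 1.13, 1.28 and 1.15 FPKM in strained cells, higher in each strain library but not called without a filter (adjusted p = 0.088 by limma). The dynamin-like antiviral genes Mx1 and Mx2 were at or under 0.035 FPKM in every library and listed at 0 in at least 2. Bst2, which encodes the tether of budding viruses, was at 0.397, 0 and 0.082 FPKM without strain and 0.082, 0 and 0 FPKM with it. At these levels no difference could be read.

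The other genes of the pathway, a list of 137 symbols that holds no member, also moved in both directions. In all, 127 had a row, 70 passed the filter, with 18 falls, 15 rises and 37 genes not called. Without control replicate 1 the rises were 8, and without strain replicate 2 they were 9. The share called was 47.1%, against the 35.4% of all tested genes. Most ligands were listed at 0: 11 of 12 interferon genes, Ifnb1 and Ifng among them, had no value above 0 in any of the 6 libraries. The exception, Ifne, was at 0.207 to 0.343 FPKM in controls and 0.194 to 0.223 FPKM under strain.

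Among further receptors and JAK-STAT genes 5 fell and 1 rose of 14 tested. Of the sensing genes and adaptors 4 fell and 2 rose of 11. These counts stand beside 19.0% of all tested genes lower and 16.4% higher. Among the adaptors, the fall of Tank was lost in 9 of 15 alternative fits and the rise of Ikbke in 6. The endosomal RNA receptor gene Tlr3 rose 2.26-fold, from 1.49, 1.96 and 1.55 FPKM to 3.72, 4.17 and 3.40 FPKM (adjusted p = 0.00072 by limma).

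Among other stimulated genes 9 fell and 12 rose of 45 tested. The rises of Apobec3b, Trim34 and Ube2l6 were each lost in 7 alternative fits, and the fall of Tor1b in 5. Of the falls, 3 (Cxcl10, Slfn13 and Slfn2) were larger than any rise. The chemokine gene Cxcl10 was at 16.7, 22.4 and 18.4 FPKM in the controls and 2.89, 3.69 and 1.39 FPKM in strained cells, a 7.23-fold fall (adjusted p = 0.00012 by limma). The schlafen genes Slfn13 and Slfn2, of a family known for restraining cell growth, fell 7.66-fold and 5.19-fold (adjusted p = 3.65e-05 and 2.50e-05 by limma). Schlafen genes are similar to each other, so reads may be split between copies. Cd274, which encodes the checkpoint ligand PD-L1, was at 3.12, 2.96 and 2.78 FPKM without strain and 1.28, 0.867 and 0.655 FPKM with it (adjusted p = 0.00050 by limma, 0.0028 without a filter), and passed the filter through the controls alone. Of the rises, Ifi27l2b, a relative of Ifi27, went from 31.5, 32.01 and 33.4 FPKM to 70.2, 64.0 and 73.9 FPKM, a 2.15-fold rise (adjusted p = 6.25e-05 by limma). Cnp, which encodes a phosphodiesterase of cyclic nucleotides, rose 1.97-fold to 17.9 ± 1.06 FPKM (SD, n = 3; adjusted p = 0.00043 by limma). Slfn4, another schlafen gene, was at 2.46, 3.51 and 2.85 FPKM in the 3 controls and 6.58, 6.43 and 4.63 FPKM in the strain libraries (0.80 ± 0.15 SE, adjusted p = 0.0035 by limma), opposite in sign to the other named schlafen genes.

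**Figure D5:**
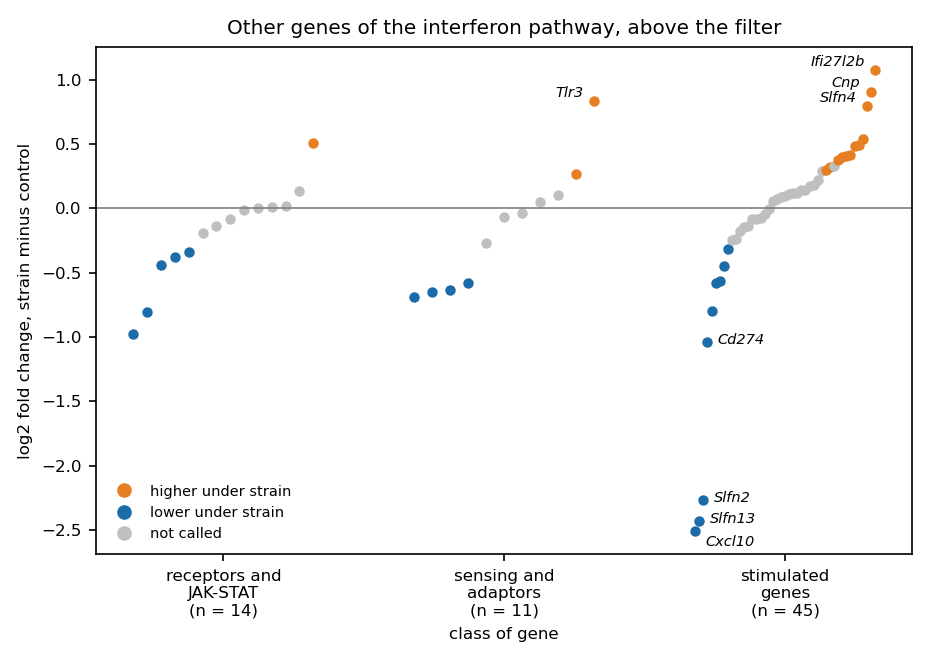
Log2 fold change, strain minus control, on the log2(FPKM + 1) scale for the 70 tested genes of the pathway outside the members, sorted within 3 classes. Orange points rose, blue points fell and grey points were not called by limma. The falls of Cxcl10, Slfn13 and Slfn2 reach below -2, and the largest rise is 1.08 (Ifi27l2b).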

How the data were processed

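RNA of 3 control and 3 strained libraries was measured. The authors deposited 1 file per library with 1 value per gene symbol, taken as FPKM from the values and the tools named. cutadapt 1.9.3, HISAT2 2.0.4, Cufflinks, Cuffdiff 2.2.1 and DESeq are named, per the submitters' processing notes, with no roles. Counting is not stated to use strand, so reads of a gene and an antisense partner cannot be told apart. The only build named there, hg19, is human, while the symbols are rat ones, so no coordinate of the files was used. In each file 27 rows had a calendar date in place of a symbol (0.191% to 0.232% of summed FPKM) and were left out, as was 1 name not present with a value in all 6 files. Low values did not fall on steps from which reads could be recovered: 2.34% to 7.81% of low genes shared the commonest ratio of a library pair within 0.01 log2 units.

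limma 3.58.1 in R 4.3.3 was fitted to every gene averaging 1 FPKM or more, on log2(FPKM + 1), with trend and robust moderation, two-sided, Benjamini-Hochberg adjusted over all genes. Log2 fold changes on this scale understate changes of low genes. Folds are ratios of mean FPKM, given where both group means reached 1. The fit was tested on simulated data. The members, lists and tests were chosen with earlier results of these data known. Every member is accounted for. Called members are given by library, as are the most abundant of the others, with a few more chosen after their values were seen. Of the other pathway genes the 4 largest rises and falls are named. Promoter windows are RefSeq's, build GRCr8, and all 43 members matched a RefSeq gene, Ddx58 by a synonym. Some items are not reported here.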

Additional observations from a re-analysis of the deposited data

How the results depend on the processing

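Of the 15 called members, 11 were called in every one of the up to 15 alternatives that tested them, and 12 of the 15 members not called were called in none. The exceptions were Ifitm2, Irf2, Irf3, Irf5, Ifi27, Ifit2 and Parp14. No called member changed sign. With a filter at 5 FPKM, where fewer genes were tested, 1071 of all genes were called higher, 3 members higher and 3 lower, and 8 other pathway genes higher. With each library left out in turn, the calls ran from 1060 to 1510 higher and 1303 to 2062 lower over all genes. They ran from 4 to 6 higher and 6 to 9 lower among members, and from 8 to 11 higher and 14 to 19 lower among the other pathway genes. The lowest counts of rises over all genes (1060) and in the other pathway genes (8) came without control replicate 1, and without strain replicate 2 the latter was 9. The replicate numbers did not pair the libraries: deviations of same-numbered libraries correlated at 0.0325, 0.108 and -0.116, and not every library correlated best with its own number. With the replicate number as a block, 1441 of all genes rose and 1675 fell, 5 members rose and 9 fell, and 12 and 17 other pathway genes did. In that fit Ifitm2 was not called (adjusted p = 0.056 by limma). Depth is unknown, so the precision of values under 1 FPKM could not be given.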
